A study of Mus musculus with 3 samples.

Results

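H3K4me3 was examined at 7 activity-regulated immediate early genes: Fos, Fosb, Junb, Egr1, Npas4, Nr4a1 and Arc. H3K4me3, trimethylation of lysine 4 of histone H3, marks active and poised promoters. Each gene was represented by a fixed window of 10 to 30 kb in the mouse genome build mm9, and its members were all peaks of the deposited lists that overlapped the window. The windows held 11 of the 18515 WT peaks and 12 of the 19631 HD peaks. These formed 12 regions, where a region joins peaks of both lists that overlap by at least 1 bp, and 11 of the 12 had a peak in both libraries. The background was the set of 17367 regions with a peak in both libraries (shared regions).

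The WT library came from wild-type mice and the HD library from their N171-82Q littermates, which carry a transgene for an N-terminal fragment of mutant huntingtin and serve as a model of Huntington's disease. In this line the prion protein promoter drives the transgene. All animals were adult male C57/DBA F1 hybrids, and each immunoprecipitation used whole hippocampus pooled from 3 mice. Each genotype had 1 library, so the values below describe a single pair of libraries, with no replicate error and no test. The labels' tissue was not checked against marker genes, because no gene annotation of mm9 was used here.

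Immediate early genes are transcribed within minutes of a stimulus such as synaptic activity, without new protein synthesis. At many of them, calcium or growth factor signals act through factors such as CREB and SRF, which can already be bound before the stimulus. Promoters of such genes can also carry H3K4me3 before the stimulus. In the hippocampus their induction is known for its part in memory. Fos, Fosb and Junb encode subunits of the AP-1 transcription factor. Egr1 encodes a zinc finger factor, Npas4 a neuronal bHLH-PAS factor and Nr4a1 an orphan nuclear receptor. Arc encodes a synaptic protein that promotes AMPA receptor endocytosis.

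RefSeq promoter sequences were matched for 5 members, Fos, Fosb, Junb, Npas4 and Nr4a1, from a table of build GRCm38.p6. Because that build differs from mm9, they were not placed on the peaks. The 3 shown are the 250 bases before the annotated start of genes whose peaks differed in distinct ways: a longer HD peak at Fos, a displaced one at Npas4 and a shorter one at Nr4a1. They are written 5′ to 3′ on the gene's strand, and capitals mark TGACG or its reverse complement CGTCA, the core of the cAMP response element to which CREB binds.
Fos, chr12:85473640-85473889, plus strand: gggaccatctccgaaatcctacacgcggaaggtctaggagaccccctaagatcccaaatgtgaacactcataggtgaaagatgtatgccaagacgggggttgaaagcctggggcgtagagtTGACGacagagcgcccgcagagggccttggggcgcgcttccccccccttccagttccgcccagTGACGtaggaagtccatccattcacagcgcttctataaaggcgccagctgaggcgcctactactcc
Npas4, chr19:4989972-4990221, minus strand: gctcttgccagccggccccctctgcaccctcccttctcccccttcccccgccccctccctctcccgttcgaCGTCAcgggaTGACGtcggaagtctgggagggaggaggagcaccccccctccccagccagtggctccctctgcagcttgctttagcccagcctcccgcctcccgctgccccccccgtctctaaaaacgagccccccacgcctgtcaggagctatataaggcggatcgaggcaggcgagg
Nr4a1, chr15:101266596-101266845, plus strand: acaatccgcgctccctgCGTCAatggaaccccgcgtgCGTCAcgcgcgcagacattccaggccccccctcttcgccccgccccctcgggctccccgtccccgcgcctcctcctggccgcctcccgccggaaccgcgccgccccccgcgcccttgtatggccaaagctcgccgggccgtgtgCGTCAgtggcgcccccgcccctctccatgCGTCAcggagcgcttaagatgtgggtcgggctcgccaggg
The core letters occurred 2 times in the Fos and Npas4 sequences, 4 times in that of Nr4a1, and 1 time in those of Fosb and Junb. Of 32851 promoter sequences of the same length in the table, 17.8% held the core at least 1 time and 0.137% at least 4 times. The limit of 4 was the count in Nr4a1 itself. The promoters were not matched for base composition, and the Nr4a1 sequence was 74.4% G and C. In Fos the copy nearest to the start had 61 bases between it and the start, and in Nr4a1 that distance was 35 bases. The full element TGACGTCA, the AP-1 site TGAGTCA and the CArG box, the sequence to which SRF binds, were searched on both strands and were not found in these 5 windows of 250 bases. They occurred in 1.55%, 4.46% and 1.47% of all the promoter sequences. Only exact matches within the 250 bases before the start were sought. Sites further upstream, or differing by a base, would be missed, so these promoters may still have such sites. A full element would also count as a pair of cores. The hexamer TATAAA on the gene's strand occurred in the Fos sequence and in 7.59% of all promoters. Variants of this hexamer were not sought, so its absence from the other sequences does not mean that they lack a similar element.

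All 7 gene windows held at least 1 H3K4me3 peak in each library, so no window gained or lost the mark outright. Peaks were not assigned to genes, so a gene named below stands for its window. The length covered by peaks was greater in HD at 5 of 7 genes, Fos, Fosb, Junb, Egr1 and Npas4, and smaller at 2, Nr4a1 and Arc. Among all shared regions 30.8% were longer in HD and 69.0% were shorter. The log2 length ratio (covered length in HD divided by that in WT) had a median of 0.07 over the 7 genes and of -0.09 over all shared regions (quartiles -0.22 and 0.03). Summed over the windows, peaks covered 37719 bp in WT and 38783 bp in HD, 2.82% more in HD. Of the 11 shared regions in the windows, 9 were longer in HD and 2 shorter. Most differences were small. With a threshold of 0.32 on the log2 scale in either direction, Fosb was past it on the longer side and Arc on the shorter side, against a background of 3.67% longer and 13.3% shorter. Fosb exceeded that threshold by less than 0.01, at 7011 bp (WT) and 8768 bp (HD). Its HD sum includes a peak of 738 bp with no WT counterpart. With peaks of all scores counted, Fosb passed only with that peak included. With a minimum score of 100 it passed without that peak, at 0.54, because a WT peak was removed and its HD counterpart kept. The background consists of shared regions and leaves out peaks with no counterpart. No member passed 1.5-fold, which 0.749% of shared regions passed on the longer side and 2.79% on the shorter side. In tissue of mixed cell types, a change of the mark in each cell and a change in the share of cells that carry it cannot be told apart.

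**Figure D1:**
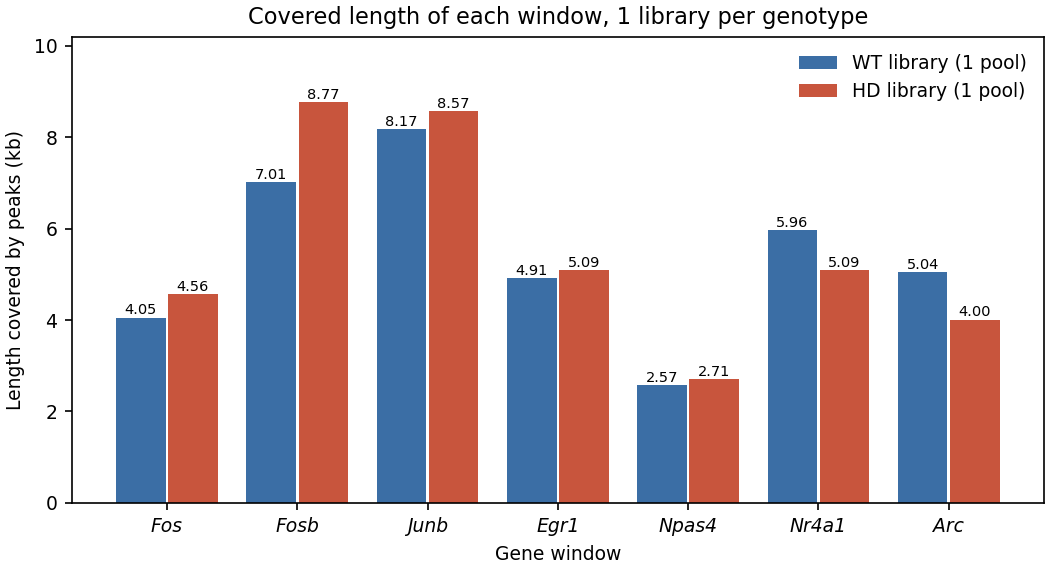
Bars give the length in kb covered by H3K4me3 peaks that overlap each gene window, in the WT library and the HD library, each 1 pool of mice and without error bars for that reason. The HD bar is higher at Fos, Fosb, Junb, Egr1 and Npas4 and lower at Nr4a1 and Arc.

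**Figure D2:**
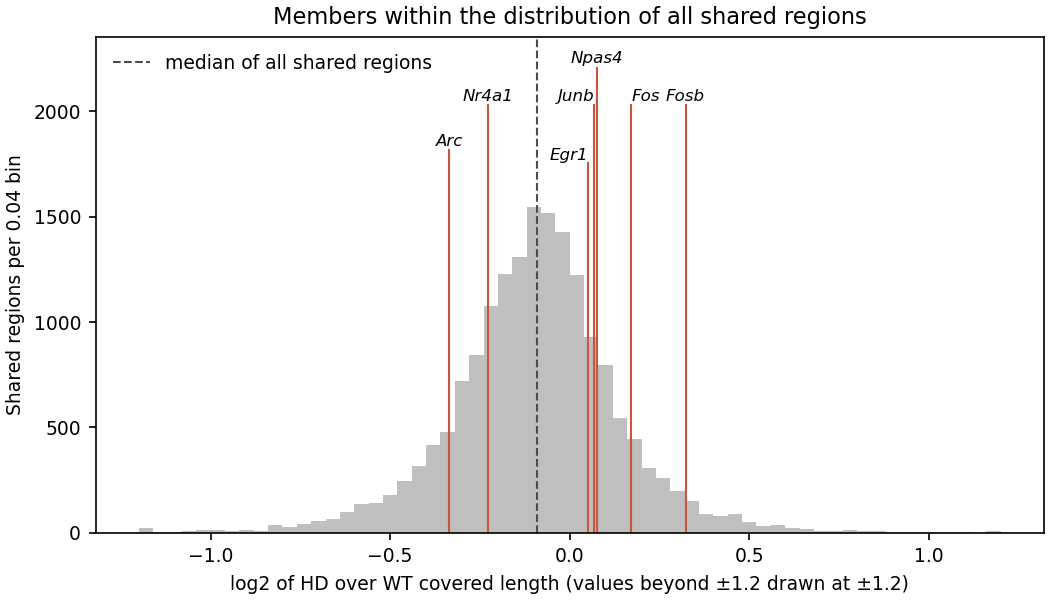
The grey histogram counts all 17367 shared regions by their log2 length ratio, and vertical lines give the ratios of the 7 gene windows (line heights carry no meaning). The dashed line is the median of all shared regions, -0.09; Fosb, Fos, Npas4, Junb and Egr1 lie above 0, and Nr4a1 and Arc lie below the median.

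Among the AP-1 genes, Fos had 1 peak in each library. It spanned 4050 bp in WT (chromosome 12, 86812516 to 86816565) and 4560 bp in HD (86812588 to 86817147). The log2 ratio was 0.17, above that of 90.1% of all shared regions. The gain lay at 1 end. The left HD edge was 72 bp further in, and the right HD edge was 582 bp further out. At 99.0% of the 16873 regions with 1 peak of each library, the right HD edge lay less far out or further in. Fos is read from left to right, on the plus strand of the GRCm38.p6 table, so the longer end was the one towards the gene body. In 68 of the 16873 regions, Fos included, the left edge lay in and the right edge out by at least as much.

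The Fosb window held 3 WT peaks and 4 HD peaks. In GRCm38.p6 the protein-coding neighbours of Fosb are Rtn2 and Ercc1, and which gene each peak belongs to was not analysed here. The highest scoring peak was nearly the same in both libraries, 3678 bp in WT (chromosome 7, 19892682 to 19896359) and 3701 bp in HD (19892700 to 19896400), a log2 ratio of 0.01. The surplus in HD came from the weaker peaks to its left. The peak at 19889468 to 19890969 in WT had 1502 bp and a score of 78.13. Its HD counterpart at 19888930 to 19891055 had 2126 bp and a score of 185.13, a log2 ratio of 0.50 that exceeded 98.8% of all shared regions. The next peak to the left covered 1831 bp in WT (19885961 to 19887791) and 2203 bp in HD (19885647 to 19887849), a log2 ratio of 0.27. In both of these regions the HD peak reached further out at both ends, by 538 and 86 bp in the first and by 314 and 58 bp in the second. The gap between these weaker peaks was 1676 bp in WT and 1080 bp in HD. The fourth HD peak, at 19880915 to 19881652, was 738 bp wide with a score of 71.8 and had no WT counterpart. Both lists begin at a score of 50.01, so this peak and the weakest WT peak lay near the lower end of their lists. With the highest scoring peak alone, Fosb stood at the log2 ratio of 0.01, and with peaks scoring at least 100 it stood at 0.54, from 5509 bp (WT) and 8030 bp (HD). That minimum removed the WT peak of 1502 bp but kept its HD counterpart of 2126 bp. The 0.54 thus counts a region marked in both libraries in HD only.

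Junb had 2 peaks in each library, and its neighbours in GRCm38.p6 are Prdx2 and Hook2. The higher scoring peak spanned 5311 bp in WT (chromosome 8, 87499564 to 87504874) and 5640 bp in HD (87499300 to 87504939), the widest of the 7 genes' highest scoring peaks in both libraries. Its log2 ratio was 0.09, above that of 82.4% of shared regions, and the HD peak enclosed the WT peak, reaching 264 bp further out at its left end and 65 bp at its right end. Junb lies on the minus strand of the GRCm38.p6 table, so the left end is the one towards the gene body. The other peak, which reached only the edge of the window, covered 2861 bp in WT (87492458 to 87495318) and 2930 bp in HD (87492401 to 87495330). The Junb window as a whole was covered over 8172 bp (WT) and 8570 bp (HD), which gave 0.07 on the log2 scale.

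**Figure D3:**
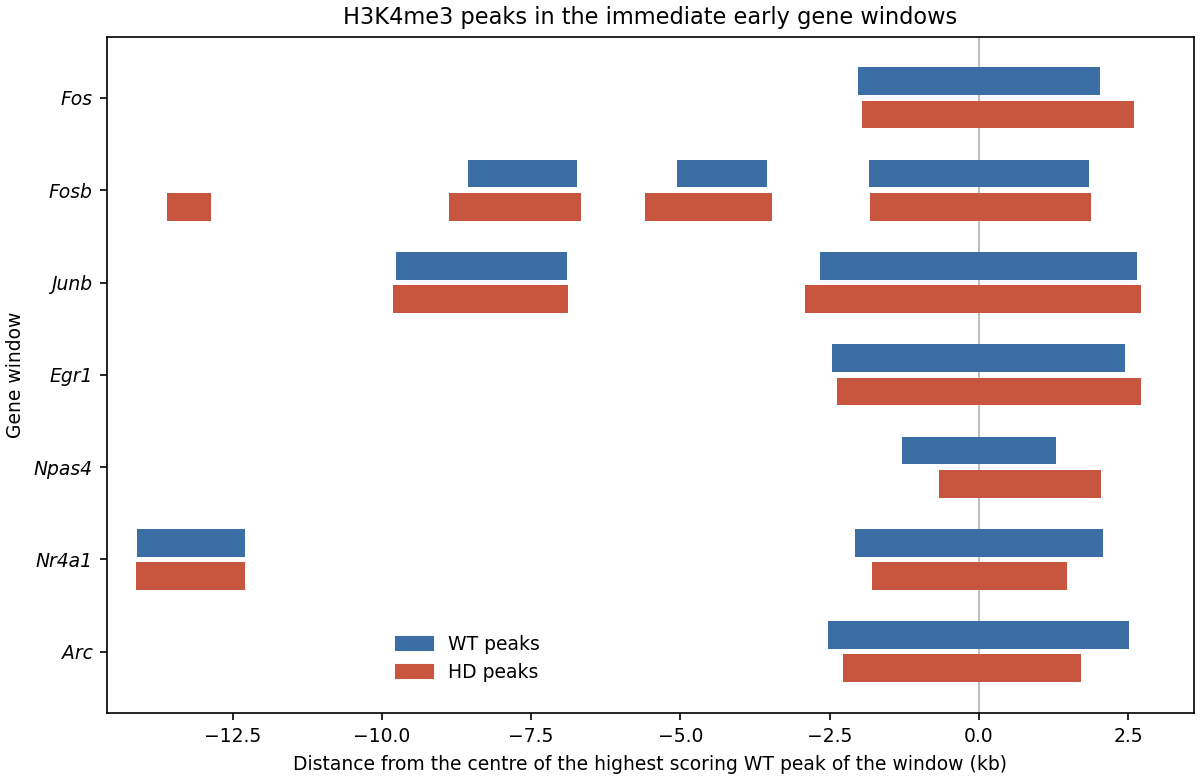
Horizontal bars show each WT peak (blue) and HD peak (red) of the 7 gene windows by distance in kb from the centre of that window's highest scoring WT peak; the left side is the lower coordinate. The HD bar at Npas4 is displaced to the right, those of Arc and of the main Nr4a1 region lie inside the WT bars, and Fosb has 4 HD pieces against 3 WT pieces.

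Egr1 had 1 peak in each library, of 4912 bp in WT (chromosome 18, 35018219 to 35023130) and 5092 bp in HD (35018307 to 35023398). The log2 ratio of 0.05 exceeded that of 78.1% of shared regions. As at Fos, the left HD edge was further in, by 88 bp, and the right HD edge further out, by 268 bp. At 95.0% of regions with 1 peak of each library, the right HD edge lay less far out or further in.

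Npas4 stood apart by position and not by length. Its single peak measured 2568 bp in WT (chromosome 19, 4987901 to 4990468) and 2705 bp in HD (4988523 to 4991227), a log2 ratio of 0.075. The left HD edge lay 622 bp further in and the right HD edge 759 bp further out. The centre was thus displaced by 690.5 bp, against a median of 94.5 bp over regions with 1 peak of each library, and the peaks shared 58.5% of their joint length. Npas4 is on the minus strand of the GRCm38.p6 table, so the HD peak lay further upstream. A displacement of the centre at least this large was found in 151 of the 16873 regions, 0.895%. Of these 151, 3 had a length ratio as close to 1 as that of Npas4, Npas4 included. In 2 regions, Npas4 included, the left edge lay in and the right edge out by at least as much. These counts were made after the values of Npas4 were seen.

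At Nr4a1 and Arc, which had less covered length in HD, the highest scoring HD peak lay further in at both ends. Nr4a1 had 2 peaks in each library, and its neighbours in GRCm38.p6 are Grasp and Atg101. The higher scoring peak spanned 4157 bp in WT (chromosome 15, 101095937 to 101100093) and 3257 bp in HD (101096234 to 101099490). Its log2 ratio was -0.35, and 11.3% of shared regions had a lower one. The HD peak lay wholly inside the WT peak, its left edge 297 bp and its right edge 603 bp further in. The other peak, over 10 kb to the left, measured 1806 bp in WT (101083917 to 101085722) and 1833 bp in HD (101083890 to 101085722), so the right edges fell on the same base and the log2 ratio was 0.02. The shorter length in the Nr4a1 window, 5963 bp (WT) against 5090 bp (HD), -0.23 on the log2 scale, came from 1 of its 2 regions.

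Arc had 1 peak of 5043 bp in WT (chromosome 15, 74499461 to 74504503) and of 3998 bp in HD (74499702 to 74503699). The HD peak was 1045 bp shorter, the largest shortfall among the 7 genes. The log2 ratio was -0.34, and 12.5% of shared regions had a lower one. The left HD edge lay 241 bp further in and the right HD edge 804 bp further in, and 1.42% of regions with 1 peak of each library had a right edge further in. Both edges lay in by at least as much in 51 regions, 0.302%, for Arc and in 48 regions, 0.284%, for the main Nr4a1 peak, the gene itself included in each count. Like the counts for Fos and Npas4, these took their limits from the gene's own edges after they were seen, and they are descriptions only. Of the regions with 1 peak of each library, 42.4% had both HD edges further in, 13.0% both further out and 44.2% 1 in and 1 out. In the windows these patterns occurred in 2, 4 and 4 regions, and in the remaining one the right edges coincided. All of the window regions with both edges further out lay in the Fosb and Junb windows, so they do not describe the 7 genes as a set.

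**Figure D4:**
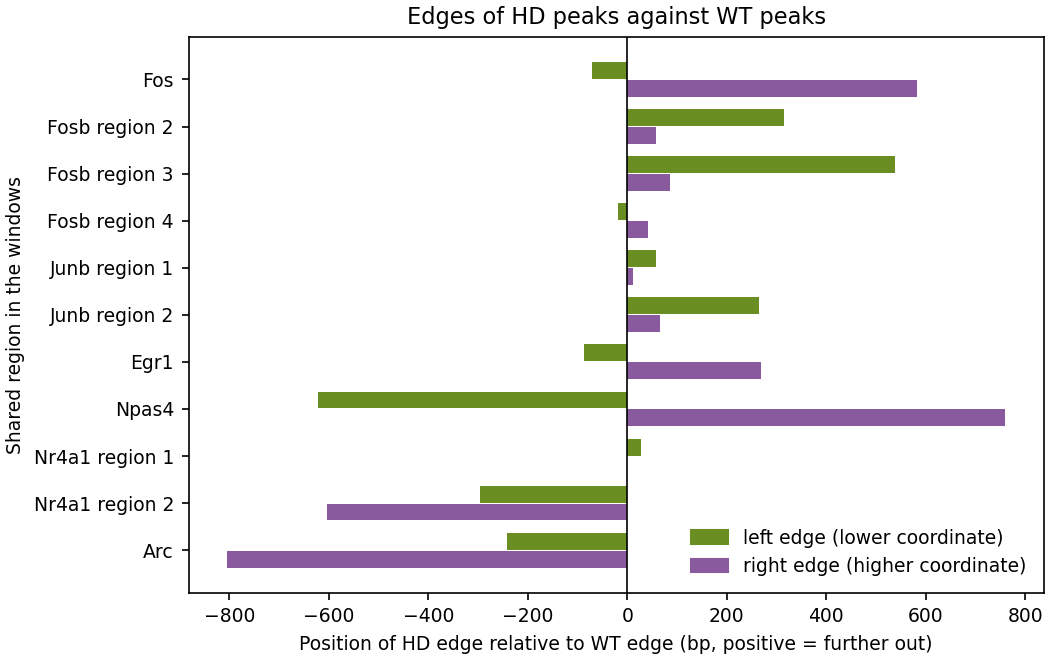
Bars give how far each HD edge lay outside (positive) or inside (negative) the matching WT edge, in bp, for the 11 shared regions of the windows; Fosb region 1 is absent because it had no WT peak. Arc and Nr4a1 region 2 are negative at both edges, Npas4 is -622 on the left and 759 on the right, and Fos is 582 on the right.

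Regions around the windows were mostly shorter in HD. Within 100 kb of the 7 windows lay 62 other shared regions, of which 18 were longer in HD, 29.0%, close to the background of 30.8%. Their median log2 ratio was -0.07. At Fos, all 3 such regions had ratios from -0.11 to -0.04, below the 0.17 of Fos itself. At Egr1, all 6 had ratios from -0.11 to 0.01, below the 0.05 of Egr1. At Npas4, 11 of 13 and at Junb 13 of 16 neighbouring regions had a lower ratio than the gene, and at Fosb 13 of 15. At Arc, 1 of 4 neighbours had a lower ratio, a region 97.1 kb to the left of the window of 5113 bp (WT) and 3376 bp (HD), a ratio of -0.60. At Nr4a1, 2 of 5 neighbours had a lower ratio than the window, the lowest at -0.67.

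The authors' score was used to rank peaks within a list and to choose peaks of like score within it, and its values were not compared between the libraries. In WT, the highest scoring peaks of Junb, Fos and Egr1 scored 2619.01, 2530 and 1779.47, above 93.9%, 93.1% and 80.9% of WT peaks. Those of Fosb, Arc, Nr4a1 and Npas4 scored 878.27, 790.63, 743.63 and 713.38, near the middle of the WT list, above 51.2%, 48.3%, 46.7% and 45.7% of it. In HD, Fos scored 3100, a value that 2184 HD peaks share, Junb 3088.02 and Egr1 3063.2, each above at least 87.1% of HD peaks. The tie limits how finely peaks at the top of the HD list can be ranked. All tied peaks also fall in the HD sets of like score of Fos, Junb and Egr1. Arc scored 1489.66 in HD, Fosb 1589.3, Nr4a1 1141.54 and Npas4 742.97, above 57.4%, 59.5%, 49.9% and 41.8% of HD peaks. The same 3 genes thus held the top ranks in both libraries, and Npas4 the lowest. The shorter HD peaks of Arc and Nr4a1 did not have a low rank in the HD list.

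The highest scoring peak of each gene was wider than most peaks of like score in its list. Among WT peaks with a score within 0.32 on the log2 scale, the Arc peak was wider than 98.4%, Nr4a1 than 96.5%, Egr1 than 93.6% and Fosb than 91.8%. The median width of the peaks compared with Arc was 2311 bp, against the 5043 bp of Arc. Npas4 and Fos were the least wide for their score in WT, wider than 68.7% and 63.5%. In HD the Fos peak was wider than 86.2% of peaks of like score, Npas4 than 85.0%, Junb than 95.0%, Arc than 94.9%, Fosb than 92.1%, Egr1 than 91.9% and Nr4a1 than 87.6%. The sets of like score differ between the lists, so these shares are not compared between WT and HD. Among shared regions whose mean length lay in the members' range, 28.2% were longer in HD, and among those in the range of their WT scores 27.2%, so the background was near 30.8% for regions of like length or score too.

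**Figure D5:**
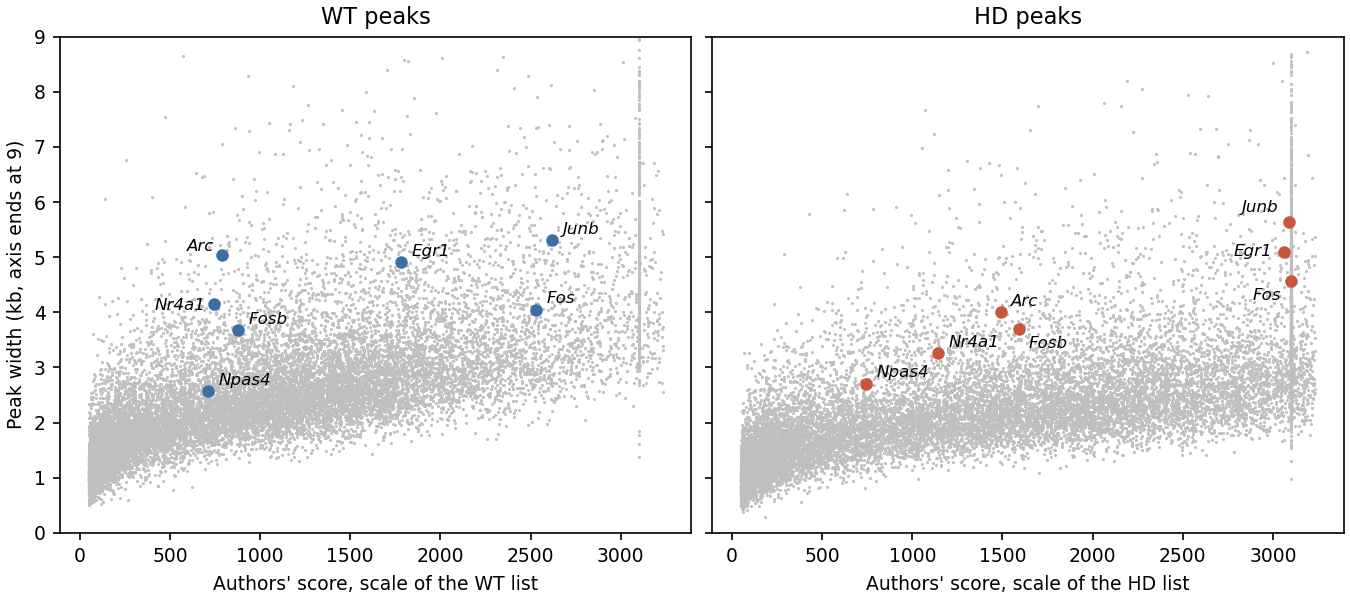
Each grey point is a peak, by the authors' score (x axis, on the scale of its own list) and its width in kb (y axis, which ends at 9 kb), with the highest scoring peak of each of the 7 gene windows in colour, for WT on the left and HD on the right. Each of the 7 peaks is wider than most peaks of like score in its list, least so Fos (63.5%) and Npas4 (68.7%) in WT. Arc is 5043 bp wide in WT and 3998 bp in HD.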

How the data were processed

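H3K4me3 chromatin immunoprecipitation was sequenced as single reads of 50 bp, per the series' design text. The authors deposited 1 peak list per library, with positions and a score for each peak. CASAVA 1.8.2, BWA 0.5.9, SAMtools and the builds NCBIM37 and mm9 are named in the submitters' processing notes. Peaks bear MACS in their names, per the files, while its version and settings are not given in sources used here. The deposited score has no stated unit and was used within each list, for ranks, sets of like score and a background class by WT score; the minimum of 100, applied to both lists as an alternative, need not mean the same in each, and the sequencing depth is unknown, since the lists hold no read counts. The input library was not used.

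Covered length is the summed width of all peaks that overlap a window, whole peaks included. Positions are mm9, counted from 1. Left means the lower coordinate. With 1 library per genotype no p-value was computed, and percentages over regions describe these lists. Members, windows and lists were chosen with earlier results of these data known. All 7 members are named. A planned list of other immediate early genes was not analysed, because no mm9 annotation was used here. RefSeq tables of GRCm38.p6 gave gene order, strand and promoter sequences only. Alternatives were clipping to the window, merging peaks within 1 kb, a minimum score of 100, equal list lengths and the highest scoring peak alone. Region joining was tested on simulated data. Tools were Python 3.11.15, numpy 2.4.6, pandas 2.3.3 and matplotlib 3.10.9.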

Additional observations from a re-analysis of the deposited data

How the results depend on the processing

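Under each of the 5 alternatives for the peaks counted (clipping, merging within 1 kb, a minimum score of 100, equal list lengths and the highest scoring peak alone), 5 members were longer and 2 shorter in HD. For Fos, Egr1, Npas4 and Arc this was largely fixed beforehand. Each had 1 peak per library, inside its window and scoring over 100, and no alternative changed its length. Merging and equal list lengths changed no member, so the stable counts say little about robustness. With the highest scoring peak alone, the log2 ratio was 0.009 at Fosb, 0.087 at Junb and -0.35 at Nr4a1, the median of the members was 0.052, and 0 members were past the log2 threshold of 0.32 on the longer side and 2 on the shorter side. The outermost left HD edge, with all peaks of the window, was 5046 bp further out at Fosb, where the fourth HD piece sets it, 57 bp at Junb and 27 bp at Nr4a1. With the highest scoring peak alone it turned inward at Fosb (-18 bp) and Nr4a1 (-297 bp) and was 264 bp further out at Junb. With a minimum score of 100, Fosb stood at 0.54, with 2 WT and 3 HD pieces. This minimum removed the WT peak of a shared region whose HD peak it kept. With lengths clipped to the window, Junb stood at 0.085. With a threshold of 1.5-fold, 0 members were past it in either direction. The median of neighbouring regions within 50 kb was -0.042 at Fos, -0.32 at Nr4a1 and 0.020 at Arc, and within 250 kb it was -0.053 at Nr4a1 and -0.048 at Arc, from few regions. Ranked among autosomal peaks alone, the percent of peaks with a lower score was 56.5 for Arc, 58.5 for Fosb and 49.1 for Nr4a1 in HD, and 47.5 for Arc, 80.3 for Egr1, 50.3 for Fosb, 45.0 for Npas4 and 46.0 for Nr4a1 in WT. No paired analysis was possible because WT and HD are single libraries. Depth, which is unknown, limits what a missing weak peak, such as the fourth piece at Fosb, can show.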
